A study of Homo sapiens with 6 samples.

Results

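NEAT1, MALAT1, TUG1, NORAD and OIP5-AS1 are abundant long non-coding RNAs (lncRNAs) present in nearly every human cell, and their levels were compared between A549/DDP and A549 cells. The members were all listed transcripts whose gene ID is one of these 5 genes in the GENCODE 44 annotation, which gave 42 of 81818 transcripts, and 5 of 30061 gene IDs. MALAT1 had 17 listed transcripts, OIP5-AS1 had 10, TUG1 had 9, NEAT1 had 5 and NORAD had 1. GENCODE 44 types TUG1 as a protein-coding gene and the other 4 as lncRNA genes.

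The A549/DDP cells are the cisplatin (DDP)-resistant line (spelled A549/DPP in the labels), which was kept in medium with 1 µg/mL DDP, and the A549 cells are the parental human lung adenocarcinoma line, grown in the same medium with no drug. Both lines were used at passages 6 to 8 and in logarithmic growth. Total RNA was depleted of rRNA and sequenced in 3 libraries of A549/DDP cells and 3 of A549 cells, so RNAs with and without a poly(A) tail could enter. The resistant cells are 1 line and carried the drug, so selection for resistance and the presence of DDP cannot be told apart, and p values measure only the spread between libraries of a line.

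These RNAs act in part as scaffolds. MALAT1 concentrates in nuclear speckles, where splicing factors are stored, and NEAT1 exists as a short polyadenylated form and a long form that builds the paraspeckle, a nuclear body that holds SFPQ and NONO. Both MALAT1 and the long NEAT1 form lack a poly(A) tail, since RNase P cuts them downstream of an A-rich tract that folds with U-rich motifs into a triple helix. NORAD is a cytoplasmic RNA that binds Pumilio proteins such as PUM2 through many copies of their motif. TUG1 was first described in the mouse retina and has been studied with Polycomb proteins. OIP5-AS1 (cyrano) is known for an unusually extensive site for miR-7.

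The 3′ ends of MALAT1 and of long NEAT1 are shown because they say which form of each RNA a listed transcript could hold. Both are 100 bases from chromosome 11 of GRCh38, plus strand, and the capitals mark the 3 runs of at least 8 bases that they share in the same order.

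NEAT1, chr11:65445441-65445540: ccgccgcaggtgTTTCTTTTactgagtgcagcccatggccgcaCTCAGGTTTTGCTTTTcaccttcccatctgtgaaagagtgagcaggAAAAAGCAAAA

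MALAT1, chr11:65506017-65506116: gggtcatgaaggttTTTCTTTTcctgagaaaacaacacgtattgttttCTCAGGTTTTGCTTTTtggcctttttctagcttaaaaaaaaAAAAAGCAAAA

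The shared runs were TTTCTTTT, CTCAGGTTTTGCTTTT and AAAAAGCAAAA, which together made up 35 of the 100 bases. The MALAT1 stretch was placed by searching for the last 11 bases of NEAT1-202, AAAAAGCAAAA. They occurred 2 times in the leading MALAT1 transcript, and the stretch ends at the last occurrence. That run is therefore shared by the way the stretch was chosen. The NEAT1 stretch is the very end of the leading listed NEAT1 transcript, which has the span of NEAT1-202, the long single-exon form. The MALAT1 stretch ends at base 8355 of the leading listed MALAT1 transcript, which runs on for another 353 bases. That transcript therefore covers the A-rich tract and the region after it, where a small tRNA-like RNA (mascRNA) is cut off, as 1 value.

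NORAD had the most Pumilio motifs of the 5 genes, in the shortest span. The Pumilio motif was searched as TGTANATA on both strands (N is any base). The listed NORAD transcript (chromosome 20, 36045622 to 36050960, minus strand) held 15 matches on its own strand in 5339 bases and 1 on the opposite strand. Of 60214 windows of that length on chromosomes 11, 15, 20 and 22, 45.1% held at least 1 match on the same strand and 0.110% held as many as 15. In 3 places a pair of matches started only 9 bases apart. One stretch with such a pair is shown, minus strand, with the matches in capitals.

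NORAD, chr20:36049493-36049730: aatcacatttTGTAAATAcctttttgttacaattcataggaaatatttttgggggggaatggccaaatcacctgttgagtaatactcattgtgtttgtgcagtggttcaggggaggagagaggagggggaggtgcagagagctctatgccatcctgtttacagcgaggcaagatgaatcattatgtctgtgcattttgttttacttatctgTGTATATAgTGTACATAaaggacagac

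The other genes were less dense. NEAT1 held 6 matches on its own strand and 7 on the opposite strand in 22767 bases, and 15.99% of windows of that length held at least 6. TUG1 held 3 and 2 in 8719 bases, and 14.2% of windows held at least 3. OIP5-AS1 held 4 and 3 in 25748 bases with introns included, and 41.8% of windows held at least 4. MALAT1 held 0 and 3 in 8755 bases, which says only that these letters are not on its strand there, and 59.8% of windows of its length held at least 1.

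**Figure D1:**
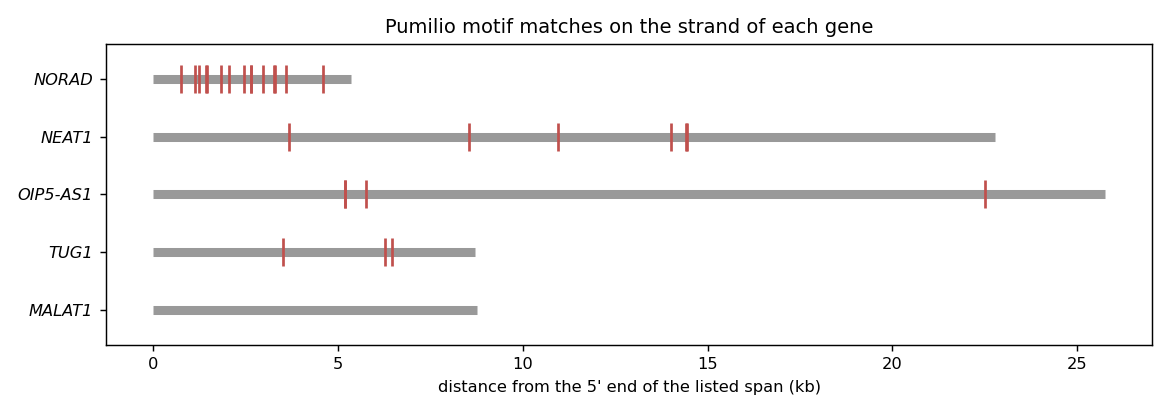
Matches of TGTANATA (red ticks) along the span covered by the listed transcripts of each gene (grey bars), as distance in kb from the 5′ end. NORAD has 15 matches in the shortest span, and MALAT1 has 0.

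OIP5-AS1 is shown with miR-7-5p, whose mature sequence (RefSeq, GRCh38.p14) comes from 2 loci in the table used here, 1 of them at chr9:83969811-83969834. The capitals mark the seed, bases 2 to 8, in the miRNA. In the site they mark the match to that seed and the longest run before it that is complementary to the miRNA beyond the seed.

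hsa-miR-7-5p: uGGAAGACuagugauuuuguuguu

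OIP5-AS1, chr15:41300574-41300599: AACAACAAAATCACcaatGTCTTCCa

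The seed complement GTCTTCC occurred 4 times on the strand of OIP5-AS1 over its listed span and 0 times on the opposite strand, and 13.2% of windows of that length held at least 4. At the site shown, a run of 14 bases before the seed match is also complementary to the miRNA, against 2, 5 and 3 bases at the other sites. Of the 10 listed OIP5-AS1 transcripts, 2 have spans that include the site. They are the transcripts of highest mean FPKM, but a span does not show whether the site is in an exon of theirs. The other 4 genes held 0 matches of the seed complement on their own strand. The levels of miR-7 were not analysed here.

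Facts of the libraries bear on all of these values. The FPKM values (fragments scaled by the length of the transcript and by all mapped fragments of the library) summed to 65142 to 68665 in the A549/DDP libraries and to 58042 to 62589 in the A549 libraries. Pairs of libraries correlated over those transcripts that were tested, on log2(FPKM + 1), with Pearson's r of 0.774 to 0.782 within A549/DDP, 0.697 to 0.726 within A549 and 0.582 to 0.664 across the lines. On the first principal component, which held 39.8% of the variance, A549 replicate 2 lay at -23.0. It was nearer there to the A549/DDP libraries (42.3 to 49.8) than the other A549 libraries (-56.8 and -55.0). On the second, which held 18.2%, it lay at -67.1, apart from all other libraries of both lines (1.58 to 29.3). The gene sums are therefore also given without A549 replicate 2. Of 6 epithelial markers, KRT8 summed to 1491 to 2043 FPKM in A549/DDP libraries and 268 to 535 FPKM in A549 libraries, and KRT7 and KRT18 were also above 100 FPKM everywhere. KRT8 had a log2 fold change of 2.11, with an adjusted p of 0.00423 by limma (0.00952 to 0.0263 with 1 library left out, above 0.01 in 4 of the 6 cases). CDH1 had 7.47, 19.8 and 28.2 FPKM in A549/DDP libraries, against 4.19, 2.33 and 3.11 FPKM in A549 libraries, with a log2 fold change of 2.06 and an adjusted p of 0.0264 by limma. EPCAM reached at most 1.93 FPKM and KRT19 at most 0.47 FPKM. The markers did not move in 1 direction. Of the 5 tested, 3 had a positive log2 fold change (0.76 for KRT18) and 2 a negative one (-0.40 for KRT7 and -0.28 for EPCAM). KRT8 was the 1 called. KRT19, not tested, averaged 0.20 FPKM in A549/DDP cells and 0.40 FPKM in A549 cells. The part of these differences in the lncRNA values was not tested. Of 9 markers of other cell types, 8 were listed, all stayed under 1 FPKM, PTPRC, PECAM1, VWF and LUM were at 0, and the 8 summed to 0.365 to 0.917 FPKM in A549/DDP libraries and 0.227 to 0.576 FPKM in A549 libraries. The listed transcripts of these coding genes are mostly non-coding ones. Of the 35 of the epithelial markers, 0 had the span of an annotated coding transcript, and of the 38 of the other markers, 1 did. A lower value in a bulk sample cannot tell fewer cells that express a gene from less RNA per cell.

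None of the 5 lncRNA genes differed past the threshold between A549/DDP and A549 cells. A feature was called where limma on log2(FPKM + 1) gave an adjusted p below 0.01 and a log2 fold change beyond 1 in either direction, with Benjamini-Hochberg adjustment over the 10591 gene sums or 20663 transcripts tested. Of the 5 gene sums (the FPKM of all listed transcripts of a gene), 0 were called, and 2.35% of all gene sums were. At an unadjusted p under 0.05 limma on the FPKM as listed also found 0 of the 5, against 27.1% of all gene sums. Of the 42 listed transcripts, 24 reached 0.5 FPKM in at least 3 libraries and were tested, 0 of them were called (0.552% of all transcripts were), and 4 had an unadjusted p under 0.05 (21.7% of all transcripts did). The log2 fold changes of the 5 gene sums had a median of 0.04, and the median over all gene sums was 0.17. The tested transcripts of the 5 genes had a median of -0.14, and all transcripts a median of 0.14.

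MALAT1 was by far the most abundant of the 5 genes. Its gene sum was 230, 183 and 247 FPKM in the A549/DDP libraries and 262, 297 and 216 FPKM in the A549 libraries. The groups overlapped, since A549/DDP replicates 1 and 3 lay above A549 replicate 3. The means were 220 ± 32.9 FPKM in A549/DDP cells and 258 ± 40.7 FPKM in A549 cells (SD, n = 3 each). The log2 fold change was -0.23 ± 0.22 (SE), with a 95% interval of -0.73 to 0.27 and an adjusted p of 0.542 by limma. Without A549 replicate 2 the log2 fold change was -0.12. By mean FPKM over the 6 libraries, MALAT1 was number 3 among the lncRNA gene sums and number 17 among all 18643 gene IDs with a value above 0. NORAD was number 11 among the lncRNAs, TUG1 number 25, OIP5-AS1 number 33 and NEAT1 number 42. These ranks are over the listed transcripts only. For the coding genes looked at here those are mostly non-coding ones, so the ranks do not place these RNAs among mRNAs.

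NORAD, which sequesters Pumilio proteins, came next. It had 47.3, 51.4 and 55.9 FPKM in the A549/DDP libraries, against 34.0, 54.0 and 38.2 FPKM in the A549 libraries. Only A549 replicate 2 reached the range of the A549/DDP libraries. The means were 51.5 ± 4.31 FPKM in A549/DDP cells and 42.1 ± 10.5 FPKM in A549 cells (SD, n = 3 each). The log2 fold change of the sum was 0.31 ± 0.24 (SE), with a 95% interval of -0.24 to 0.86 and an adjusted p of 0.451 by limma. Without A549 replicate 2 it was 0.50, with an adjusted p of 0.172 by limma.

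TUG1 and OIP5-AS1 were the genes whose groups did not overlap. TUG1 summed to 26.5, 21.1 and 24.5 FPKM in the A549/DDP libraries, against 30.6, 41.2 and 31.0 FPKM in the A549 libraries. All 3 A549/DDP libraries were therefore below all 3 A549 libraries. The log2 fold change was -0.49 ± 0.23 (SE), with a 95% interval of -1.01 to 0.04 and an adjusted p of 0.215 by limma, and without A549 replicate 2 it was -0.35. OIP5-AS1 summed to 24.9, 24.8 and 28.3 FPKM in the A549/DDP libraries, against 15.1, 23.7 and 19.3 FPKM in the A549 libraries. Here every A549/DDP library was above every A549 library. The log2 fold change was 0.43 ± 0.24 (SE), with a 95% interval of -0.12 to 0.98 and an adjusted p of 0.295 by limma, and without A549 replicate 2 it was 0.57. The groups did not overlap for 2 of these 5 gene sums and for 32.2% of all gene sums tested.

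NEAT1, the paraspeckle scaffold, was the lowest of the 5 by mean FPKM over the 6 libraries. Its sum was 21.3, 15.1 and 23.3 FPKM in the A549/DDP libraries and 23.5, 22.7 and 12.8 FPKM in the A549 libraries. The libraries of each line covered nearly the same range, with 1 low library in each. The log2 fold change was 0.04 ± 0.30 (SE), with a 95% interval of -0.65 to 0.73 and an adjusted p of 0.945 by limma, and without A549 replicate 2 it was 0.16. Its sign turned when the libraries were scaled to the same total FPKM (-0.11) and under median-ratio scaling (-0.20) and quantile normalization (-0.01).

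**Figure D2:**
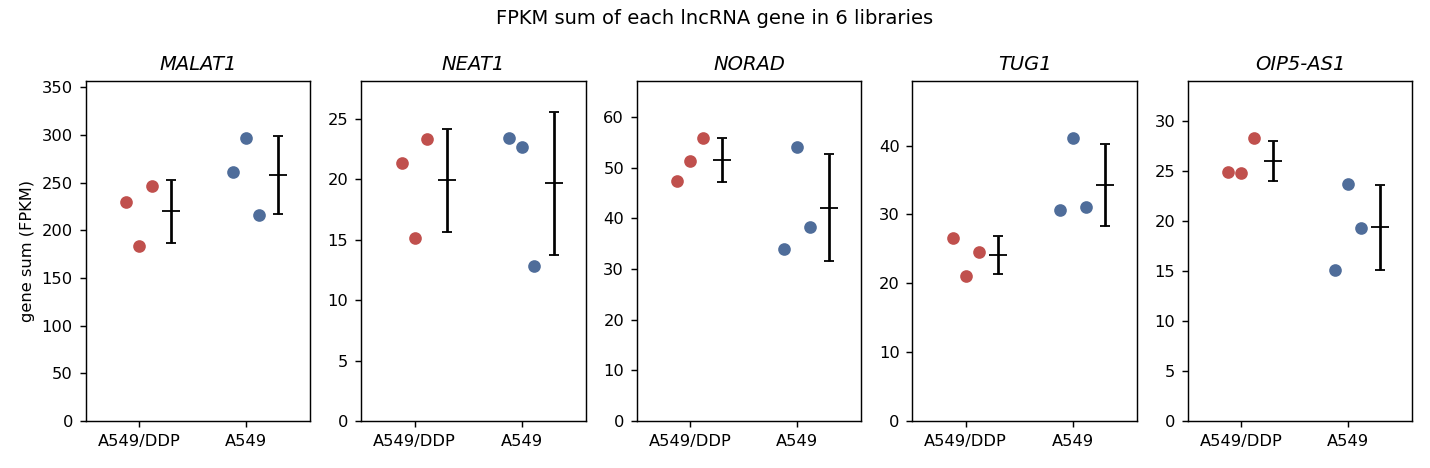
Gene sums in FPKM of the 5 genes, with a point for each A549/DDP library (red) and each A549 library (blue), and bars for the mean and SD of 3 libraries. The groups do not overlap for TUG1 (21.1 to 26.5 and 30.6 to 41.2 FPKM) and OIP5-AS1 (24.8 to 28.3 and 15.1 to 23.7 FPKM).

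These intervals limit how large a difference could have been missed. The 95% intervals of MALAT1, NEAT1, NORAD and OIP5-AS1 lay within 1 log2 unit of 0 on either side, and that of TUG1 reached -1.01. Among the 1118 gene sums tested with a mean of at least 10 FPKM, 74.8% had a larger absolute log2 fold change than MALAT1, 95.4% than NEAT1, 65.7% than NORAD, 48.5% than TUG1 and 54.4% than OIP5-AS1. Under median-ratio scaling, which takes the median of all gene sums to 0.01, the log2 fold changes were -0.48 for MALAT1, -0.20 for NEAT1, 0.06 for NORAD, -0.73 for TUG1 and 0.18 for OIP5-AS1. The adjusted p of TUG1 was then 0.0657 by limma, and those of the others were 0.184 or more. The unadjusted p by limma was then 0.00736 for TUG1 and 0.0462 for MALAT1, so the 0 of 5 under 0.05 depends on the scaling. The spread between libraries was also close to that of other genes. The SD of log2(FPKM + 1) was 0.11 to 0.31 for the 5 genes in A549/DDP libraries and 0.23 to 0.46 in A549 libraries, against medians of 0.25 and 0.35 over those 1118 gene sums.

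The order of the levels per length was MALAT1, NORAD, OIP5-AS1, TUG1 and NEAT1 in A549/DDP cells and MALAT1, NORAD, TUG1, NEAT1 and OIP5-AS1 in A549 cells. In A549/DDP cells the ranges of the neighbours OIP5-AS1 and TUG1 overlapped, and so did those of TUG1 and NEAT1. In A549 cells NORAD and TUG1 overlapped, and so did NEAT1 and OIP5-AS1. MALAT1 stood clear of NORAD in all libraries, at 3.57 to 4.86 times its value in A549/DDP libraries and 5.51 to 7.69 times in A549 libraries.

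Ratios between the genes within a library do not depend on how the libraries are scaled, and they were compared for all 10 pairs after the values had been seen. TUG1 over OIP5-AS1 was 1.07, 0.85 and 0.86 in the A549/DDP libraries, against 2.03, 1.74 and 1.605 in the A549 libraries. The lowest A549 library was therefore well above the highest A549/DDP library. The groups could not overlap for this ratio, since every A549/DDP library had a lower TUG1 sum and a higher OIP5-AS1 sum. It restates those 2 differences and is no separate result. The difference of the log2 ratios was -0.95, with SDs of 0.18 and 0.17, and without any 1 library it stayed between -1.06 and -0.86. NORAD over TUG1 was 1.78, 2.44 and 2.28 in the A549/DDP libraries, against 1.11, 1.31 and 1.23 in the A549 libraries. The groups did not overlap for 5 of the 10 pairs, and for 35.6% of the 622170 pairs of gene sums with a mean of at least 10 FPKM and no library at 0. For each of those 5 the two-sided exact permutation test gave p = 0.1, the smallest that 3 against 3 libraries allow, and 0.2 after adjustment over the 10 pairs.

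**Figure D3:**
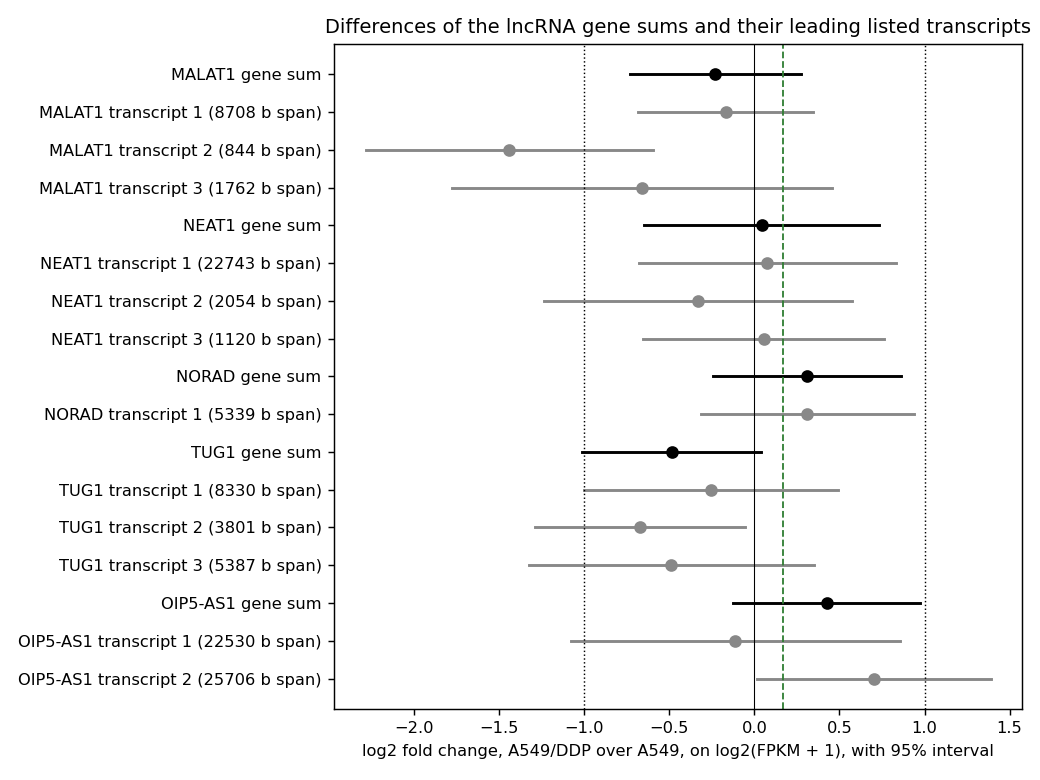
Log2 fold changes (A549/DDP over A549, on log2(FPKM + 1)) with 95% intervals from limma for the gene sums (black) and for the leading listed transcripts that were tested (grey, numbered by mean FPKM, with the length of their span). Dotted lines stand at -1 and 1 and the green dashed line at the median of all gene sums, 0.17, and only MALAT1 transcript 2 has a point beyond a dotted line (-1.44).

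As a share of the total FPKM of a library, the 5 genes together made up 0.511%, 0.454% and 0.552% in the A549/DDP libraries and 0.599%, 0.701% and 0.547% in the A549 libraries. The groups just overlapped (two-sided exact permutation test, p = 0.2). The total is that of the listed transcripts, so these are not shares of all RNA in the cells. MALAT1 alone took 0.335%, 0.281% and 0.360% in the A549/DDP libraries, against 0.429%, 0.475% and 0.372% in the A549 libraries. On this scale, and not in FPKM, the MALAT1 groups did not overlap (exact permutation test, p = 0.1, the smallest possible, and 0.25 adjusted over the 5 genes). TUG1 took 0.0356% ± 0.00320 in A549/DDP cells and 0.0565% ± 0.00817 in A549 cells (SD, n = 3 each), with the same exact p. The shares of 31.3% of all gene sums tested did not overlap between the lines, against 2 of these 5. The shares of OIP5-AS1, NORAD and NEAT1 overlapped, with exact permutation p values of 0.2, 0.6 and 0.6.

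The order also depends on length. Multiplying the FPKM of a leading listed transcript by its span in kilobases, read as unspliced, gives a value in proportion to the fragments that it took. The listed transcript with the span of NEAT1-202, 22743 bases, came to 403 ± 78.3 in A549/DDP cells and 387 ± 107 in A549 cells (SD, n = 3 each). NORAD, at 5339 bases, came to 275 ± 23.0 in A549/DDP cells and 225 ± 56.1 in A549 cells. This value was above that of NORAD in both means although the FPKM was lower, and it can hold fragments of the short NEAT1 form. The MALAT1 transcript of 8708 bases came to 1745 ± 287 in A549/DDP cells and 1969 ± 384 in A549 cells. The annotated transcript closest to it by span has 3 exons with 506 exonic bases, and the MALAT1 value would be lower if the listed one were spliced.

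The listed transcripts within each gene were then compared. MALAT1 was dominated by a transcript over nearly the whole gene (chromosome 11, 65497762 to 65506469, plus strand). This transcript shared with its closest annotated transcript 99.4% of the bases that both spans together cover. It had 202, 167 and 233 FPKM in the A549/DDP libraries and 226, 270 and 182 FPKM in the A549 libraries. It held 91.0% ± 3.22 of the gene sum in A549/DDP cells and 87.2% ± 3.38 in A549 cells (SD, n = 3 each), which overlapped (exact permutation test, p = 0.2). Its log2 fold change was -0.17 ± 0.22 (SE), with an adjusted p of 0.702 by limma.

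The MALAT1 transcript that ranked second had the largest difference of all 24 tested. It spans 844 bases inside the gene, chromosome 11, 65504005 to 65504848. It had 9.34, 4.39 and 4.99 FPKM in the A549/DDP libraries, against 19.3, 13.0 and 22.3 FPKM in the A549 libraries. Every A549/DDP library was below every A549 library. The log2 fold change was -1.44 ± 0.36 (SE), with a 95% interval of -2.29 to -0.59 and an adjusted p of 0.0741 by limma, so it was not called. The change of this short piece and that of the long transcript over the same bases differ in size, and how the quantification divided reads between them was not tested. The third transcript (65501848 to 65503609) had 6.09, 1.56 and 1.56 FPKM in the A549/DDP libraries and 7.46, 2.996 and 4.43 FPKM in the A549 libraries, and the groups overlapped through A549/DDP replicate 1.

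The other 14 MALAT1 transcripts were low. MALAT1-208 (65501960 to 65504463) had 3.54 and 2.76 FPKM in A549/DDP replicates 1 and 2 and was listed at 0 in A549/DDP replicate 3 and in the 3 A549 libraries, and it was not tested. MALAT1-213 (65502729 to 65503760) had 0.70, 0.42 and 0.44 FPKM in the A549/DDP libraries, against 1.21, 0.74 and 0.96 FPKM in the A549 libraries. Its groups did not overlap, and its adjusted p was 0.321 by limma. MALAT1-204, which lies in the 5′ part, averaged 2.59 FPKM in A549/DDP cells and 2.28 FPKM in A549 cells. Of the 8 tested MALAT1 transcripts, 6 had a negative and 2 a positive fold change, and 2 of the 17 were listed at 0 in all libraries.

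**Figure D4:**
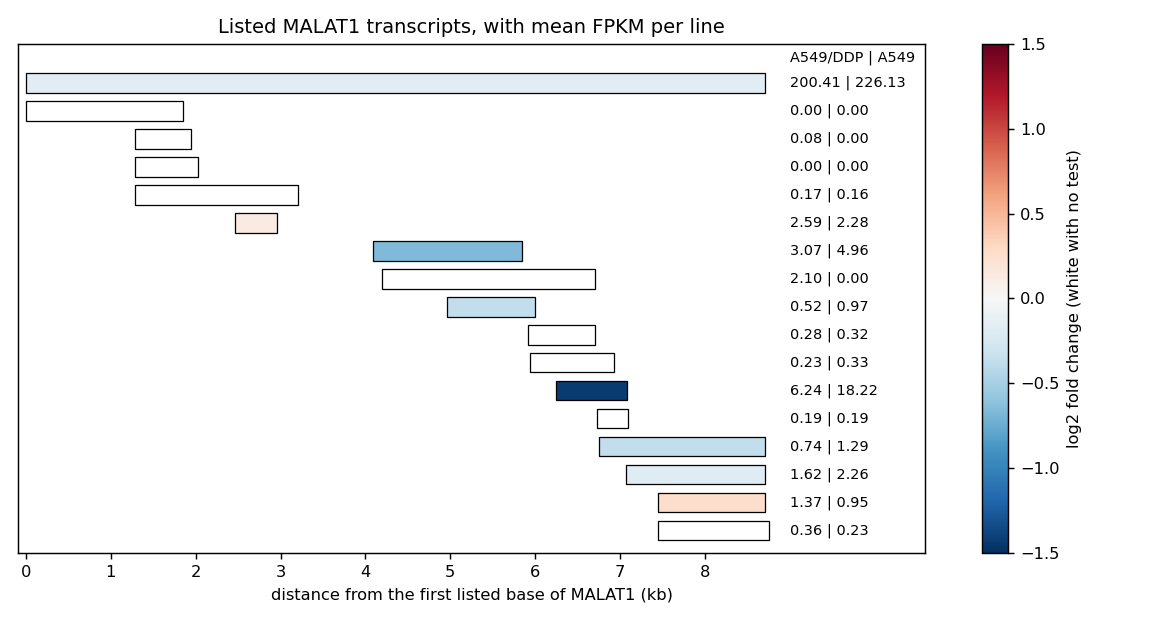
The 17 listed MALAT1 transcripts as bars by distance in kb from the first listed base, coloured by log2 fold change (blue is lower in A549/DDP, white has no test), with the mean FPKM in A549/DDP and A549 cells at the right. The darkest bar is the 844-base piece, at 6.24 and 18.22 FPKM, below the long transcript at 200.41 and 226.13 FPKM.

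Most of the NEAT1 sum was listed under the span of the long form. NEAT1-202 (chromosome 11, 65422798 to 65445540, plus strand) had 19.7, 13.7 and 19.7 FPKM in the A549/DDP libraries and 19.0, 20.4 and 11.6 FPKM in the A549 libraries. It made up 89.3% ± 4.02 of the sum in A549/DDP cells and 87.1% ± 5.44 in A549 cells (SD, n = 3 each; exact permutation test, p = 0.5). The second transcript (65422774 to 65424827) had 0.82, 0.86 and 1.35 FPKM in the A549/DDP libraries and 3.66, 0.95 and 0.74 FPKM in the A549 libraries, so the A549 mean rested on replicate 1. The third (65423285 to 65424404) stayed under 1 FPKM in all libraries, and the last 2, not tested, reached at most 1.24 FPKM.

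The short, polyadenylated NEAT1 form has no listed transcript of its own here. The poly(A) signal AATAAA was searched on both strands and occurred 8 times on the NEAT1 strand, where 92.9% of windows of the same length held as many. The copy at 65426503 to 65426508, which is 3730 bases into the span, is the one followed within 40 bases by annotated ends, of 2 GENCODE transcripts at 65426513. None of the 5 listed spans ends there. Reads of the short form fall within the long one, so the 2 forms cannot be told apart in these values.

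TUG1 was split over more transcripts. The leading one (chromosome 22, 30971066 to 30979395, plus strand) had 15.4, 10.3 and 13.7 FPKM in the A549/DDP libraries and 12.7, 21.7 and 13.8 FPKM in the A549 libraries, and the groups overlapped. The second, TUG1-208 (30972263 to 30976063), had 4.52, 3.70 and 3.76 FPKM in the A549/DDP libraries, against 7.99, 7.22 and 5.74 FPKM in the A549 libraries. Here the groups did not overlap, with a log2 fold change of -0.67 ± 0.27 (SE), a 95% interval of -1.29 to -0.06 and an adjusted p of 0.197 by limma. The third (30970677 to 30976063) had 3.38, 2.41 and 2.25 FPKM in the A549/DDP libraries and 3.23, 7.38 and 2.79 FPKM in the A549 libraries. All 6 tested TUG1 transcripts had a negative fold change, and the 3 that were not tested reached at most 2.46 FPKM. The leading transcript held 54.2% ± 4.75 of the sum in A549/DDP cells and 46.2% ± 5.86 in A549 cells (SD, n = 3 each; exact permutation test, p = 0.2).

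The make-up of OIP5-AS1 varied most in the A549/DDP libraries, through replicate 1. Its leading transcript (chromosome 15, 41284005 to 41306534, plus strand), whose span includes the miR-7 site shown above, had 7.32, 18.3 and 18.3 FPKM in the A549/DDP libraries and 11.3, 19.6 and 14.4 FPKM in the A549 libraries. A549/DDP replicate 1 was the lowest library of all. In that library the transcript from 41283990 to 41298781, which stops short of the site, had 7.63 FPKM, against 0.29 and 0.11 FPKM in the other A549/DDP libraries and 0.32, 0.51 and 0.11 FPKM in the A549 libraries. The leading transcript therefore held 29.4% of the sum in A549/DDP replicate 1, 73.7% and 64.7% in replicates 2 and 3, and 74.9%, 82.9% and 74.3% in the A549 libraries. The groups did not overlap (exact permutation test, p = 0.1, the smallest possible, and 0.267 adjusted over the 4 genes with several transcripts).

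Several minor OIP5-AS1 transcripts had higher values in A549/DDP cells. The second by mean, 41284032 to 41309737, also spans the miR-7 site and had 2.79, 1.602 and 2.89 FPKM in the A549/DDP libraries, against 1.75, 0.61 and 1.00 FPKM in the A549 libraries. Its log2 fold change was 0.70 ± 0.30 (SE), with a 95% interval of 0.01 to 1.39 and an adjusted p of 0.223 by limma, and A549 replicate 1 overlapped A549/DDP replicate 2. A short one, 41284021 to 41287474, had 1.24, 0.51 and 1.52 FPKM in the A549/DDP libraries, against 0.15, 0.41 and 0.41 FPKM in the A549 libraries. Its groups did not overlap, and its adjusted p was 0.183 by limma. The leading transcript itself had a log2 fold change of -0.11, with a 95% interval of -1.08 to 0.85 (0.08 without A549 replicate 2 and 0.29 without A549/DDP replicate 1), and 5 of the 6 tested OIP5-AS1 transcripts had a positive one. Over all 5 genes, 4 of the 24 tested transcripts had groups that did not overlap, where 27.9% of all tested transcripts did.

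**Figure D5:**
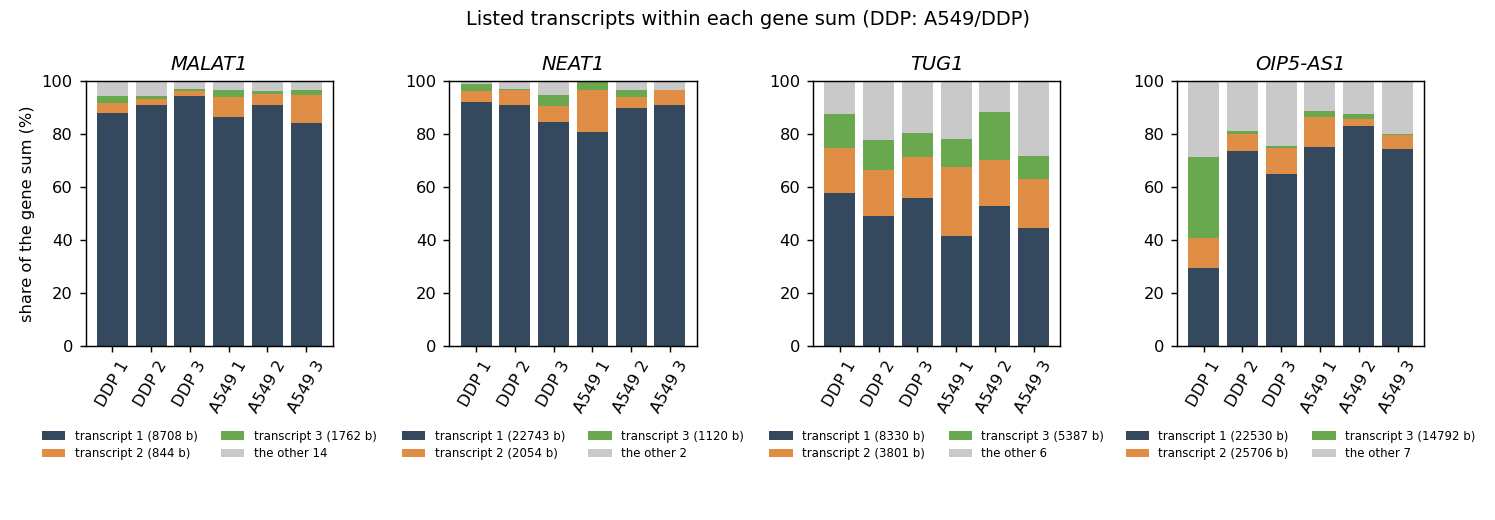
Share in percent of the gene sum held by the 3 listed transcripts of highest mean FPKM and by all others, in each A549/DDP library (DDP, left) and each A549 library. OIP5-AS1 transcript 1 holds 29.4% in A549/DDP replicate 1 and 64.7% to 82.9% elsewhere, while the leading MALAT1 and NEAT1 transcripts hold 80.9% or more everywhere.

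Genes that work with these RNAs were read from lists, on gene sums that come mostly from non-coding transcripts of the coding genes. Only 1 of 93 listed transcripts of the paraspeckle list had the span of an annotated coding transcript. In the nuclear speckle list it was 0 of 114, in the NORAD list 0 of 15 and in the TUG1 list 0 of 28. The sums are therefore not levels of the mRNAs. Of 20 paraspeckle proteins, 14 were tested and 0 were called, with a median log2 fold change of 0.30. Of these, 4 had an unadjusted p under 0.05 by limma. Over all gene sums tested, 2.35% were called and 27.1% had such a p. NONO, a core paraspeckle protein, had 48.6, 63.3 and 33.9 FPKM in the A549/DDP libraries and 32.04, 23.1 and 41.1 FPKM in the A549 libraries. The groups overlapped. RBM14, another paraspeckle protein, was picked after its values were seen. It had 5.83, 5.55 and 6.16 FPKM in the A549/DDP libraries, against 3.13, 2.37 and 1.76 FPKM in the A549 libraries. Its adjusted p was 0.0378 by limma, the lowest of the 14 tested. Of the 14, 10 had a positive and 4 a negative fold change, and HNRNPH3 was lower in every A549/DDP library than in every A549 library.

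The remaining partner lists also held 0 calls, where 2.35% of all gene sums were called. Of 16 nuclear speckle proteins and MALAT1 partners, 15 were tested, with a median log2 fold change of 0.08. Of these, 3 had an unadjusted p under 0.05 by limma, against 27.1% of all gene sums. SRRM1, a splicing coactivator of the speckle, had 8.88, 40.5 and 10.0 FPKM in the A549/DDP libraries and 32.8, 38.1 and 38.9 FPKM in the A549 libraries, so that A549/DDP replicate 2 sat with the A549 libraries. ACIN1, a splicing-associated protein, had 21.7, 17.8 and 23.9 FPKM in the A549/DDP libraries, against 14.3, 16.5 and 12.3 FPKM in the A549 libraries. Of 6 NORAD partners, 5 were tested, with a median of 0.05 and 0 at an unadjusted p under 0.05 by limma. KHDRBS1 (SAM68), an RNA-binding protein, averaged 24.5 ± 0.37 FPKM in A549/DDP cells and 31.6 ± 6.93 FPKM in A549 cells (SD, n = 3 each). RBMX averaged 11.3 ± 0.70 FPKM in A549/DDP cells and 11.4 ± 3.93 FPKM in A549 cells.

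For TUG1, 6 of 7 neighbours and partners were tested, 0 were called, and 3 had an unadjusted p under 0.05 by limma. The shares over all gene sums, for this list and the next ones, were 2.35% called and 27.1% at such a p. EED, a subunit of Polycomb repressive complex 2, had 6.67, 7.77 and 7.88 FPKM in the A549/DDP libraries, against 1.29, 4.48 and 3.03 FPKM in the A549 libraries, with an adjusted p of 0.0602 by limma. RBM4, an RNA-binding protein, had 3.93, 5.50 and 7.03 FPKM in the A549/DDP libraries and 5.40, 7.33 and 1.73 FPKM in the A549 libraries. For OIP5-AS1, GAK was the 1 partner or neighbour tested, at 2.37 ± 0.52 FPKM in A549/DDP cells and 2.18 ± 0.48 FPKM in A549 cells (SD, n = 3 each), and ELAVL1 (HuR) stayed under 1 FPKM. Of 9 neighbours of NEAT1 and MALAT1 on chromosome 11, 8 were tested, 0 were called, 1 had an unadjusted p under 0.05 by limma, and the median log2 fold change was -0.21. The most abundant, DPF2 and LTBP3, overlapped between the lines.

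Other widely expressed non-coding RNAs were tested for comparison. Of 15 on the list, 9 were tested, 1 was called and 7 had an unadjusted p under 0.05 by limma. Among all gene sums, 2.35% were called and 27.1% had such a p. The called one was ZFAS1, a snoRNA host transcript, with 46.9, 31.6 and 46.8 FPKM in the A549/DDP libraries, against 117, 103 and 127 FPKM in the A549 libraries. Its log2 fold change was -1.46 ± 0.24 (SE), with an adjusted p of 0.00962 by limma. It was no longer called when any 1 library was left out (adjusted p 0.0200 to 0.0467 by limma) or with the replicate block (0.0250). The same held by limma with a pseudocount of 0.1 (adjusted p 0.0117), no filter (0.0320), quantile normalization (0.0133) and no variance trend (0.0106). Its log2 fold change in these fits stayed between -1.56 and -1.28. It stayed called with a filter at 2 FPKM, under total and median-ratio scaling, and with only matched spans summed. No difference between ZFAS1 and the 5 genes was tested.

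The lncRNAs whose pattern over the 6 libraries was most like each gene were named from 161 lncRNA gene sums with a mean of at least 5 FPKM, by Pearson's r of log2(FPKM + 1), as a description. They were TMEM147-AS1 (r = 0.970), MIR22HG (0.961) and SNHG16 (0.894) for MALAT1, and PCBP1-AS1 (0.976), SNHG17 (0.868) and FGD5-AS1 (0.833) for NEAT1. For TUG1 they were EPB41L4A-AS1 (0.962), THAP9-AS1 (0.951) and SBF2-AS1 (0.939). NORAD and OIP5-AS1 were on each other's lists (r = 0.945), beside LINC03011 and SNHG14 for NORAD and CHROMR and DANT2 for OIP5-AS1. All points share the 6 libraries and their scaling.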

How the data were processed

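RNA of 3 A549/DDP and 3 A549 libraries was measured. The deposited values are FPKM per transcript, which the authors computed after alignment to hg38. The paper names HISAT2 and the Cufflinks tools, and the submitters' processing notes name CASAVA, HISAT2, StringTie and DESeq2. Whether the quantification used the strand is not given in the sources used here, and the depth is unknown. The transcripts have a gene ID and a span. They were named with GENCODE 44 where both matched (87.1%), which was so for 7 of the 42 transcripts described. Exons are not listed.

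Values were compared as log2(FPKM + 1) with limma 3.58.1 (R 4.3.3, eBayes with a variance trend, 95% intervals) for features that reached 0.5 FPKM in 3 libraries or more, and tested on simulated data. Shares and ratios were compared by two-sided exact permutation tests. Values were given per library for the 3 transcripts of highest mean FPKM of each gene, and for called list members or else the 2 of highest mean FPKM. Other pseudocounts, filters, scalings and left-out libraries were tried. Sequences were read from GRCh38. Tables and figures were made with matplotlib 3.10.9, scipy 1.17.1, numpy 2.4.6 and pandas 2.3.3 (Python 3.11.15). The members and lists were chosen with earlier results of these data known. TALAM1, TOP1, OIP5, CDR1-AS, FAM89B, CD68, RMRP, RPPH1, RN7SK, RN7SL1 and RN7SL2 were not analysed here. A list member that the rule on mean FPKM would name is not reported here.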

Additional observations from a re-analysis of the deposited data

How the results depend on the processing

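No gene sum of the 5 lncRNAs was called in any of 78 fits, with a smallest adjusted p of 0.066 by limma, and none of their transcripts in any of 355, with a smallest of 0.0494. The gene sums of NORAD, TUG1 and OIP5-AS1 kept their direction in all fits. The MALAT1 sum turned to 0.51 when only its transcripts with a matched span, which leave out the leading one, were summed. The NEAT1 sum turned to -0.11, -0.20 and -0.0053 under total, median-ratio and quantile scaling, which bring the median of all gene sums to 0.07, 0.01 and 0.01. NEAT1-202 turned to -0.072 under total and -0.20 under median-ratio scaling, and the third NEAT1 transcript to -0.023 under median-ratio and -0.046 under quantile scaling. The cause was not tested.

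Leaving out 1 library moved the log2 fold change of the NEAT1 sum between -0.23 and 0.22, NEAT1-202 between -0.16 and 0.24, the second NEAT1 transcript between -0.59 and 0.11, the third between -0.21 and 0.30, and the leading OIP5-AS1 transcript between -0.31 and 0.29. The NEAT1 share of total FPKM differed by -0.00797 to 0.000256 percentage points and the NEAT1-202 share by -0.996 to 4.42. The OIP5-AS1 leading share differed by -21.5 points, and by -8.21 without A549/DDP replicate 1.

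Counts over all features depended more on the processing. Of gene sums 147 were called higher and 102 lower in A549/DDP, against 31 and 28 with no filter, where more features are tested. Median-ratio scaling gave 94 higher and 119 lower. Of transcripts 73 were called higher and 41 lower, against 3 and 1 with no filter, while a filter at 2 FPKM called 100 higher and 62 lower. Leaving out 1 library gave 5 to 55 and 3 to 31 gene sums, and 0 to 1 and 0 to 5 transcripts. With the replicate number as a block, 36 and 35 gene sums and 0 and 1 transcripts were called. The deviations of same-numbered libraries correlated at 0.01, -0.03 and -0.01, and no library correlated above 0.04 with any of the other line. These values gave no sign of pairing by number. They cannot show whether same-numbered libraries were prepared together, which the labels do not say.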
